A study of Mus musculus with 9 samples.

Results

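The 8 genes described here are Jchain, Mzb1, Fkbp11, Fam46c, Eaf2, Trp53inp1, Ly6c2 and Ly6k, a set known for high expression in antibody-secreting plasma cells. They were taken by symbol, and all 8 were found among the 46958 genes of the count table. RNA was sequenced from spleen cells of unimmunized mice aged 3 months that were bound by beads against CD138, a surface proteoglycan of plasma cells, and the labels give the purity only as above 80%. Each of the 9 libraries came from 1 spleen, on a mixed C57/BL6, 129/SV and BALB/c background. The genotypes were WT, DH-LMP2A and kFRA, the last tagged LCDD for light chain deposition disease, with 3 mice each. As background, the DH-LMP2A allele places the Epstein-Barr virus protein LMP2A in the heavy-chain locus, so that B cells develop without a heavy chain, and kFRA mice carry the light chain of a patient with the disease. The labels name the genotypes and list no further alleles, so they do not say whether kFRA mice also carry the DH-LMP2A allele. Both mutant genotypes were low in heavy-chain transcripts. Heavy-chain constant-region genes took 21.91% to 27.15% of the counts in WT, 1.09% to 1.16% in DH-LMP2A and 0.88% to 0.97% in kFRA.

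Total counts ranged from 15449026 to 21558128 per library. The plasma cell identity list of 16 genes, which includes Sdc1 (CD138 itself), had a summed level of 4870 to 6893 CPM in WT, 6131 to 7017 in DH-LMP2A and 5636 to 6971 in kFRA, and no member was at 0 in any genotype. CPM is the count relative to the library total, with the totals scaled by trimmed-mean factors. Markers of other spleen cells were present. B cell markers summed to 333.3 to 666.5 CPM in WT, 378.9 to 575.6 in DH-LMP2A and 212.3 to 239.6 in kFRA. Monocyte and macrophage markers summed to 3561 to 6264 CPM in WT, 1075 to 3339 in DH-LMP2A and 2096 to 3382 in kFRA, and erythroid markers to 38.8 to 329.3, 2529 to 13568 and 1162 to 2787 CPM. Granulocyte markers summed to 271.3 to 858 CPM in WT, 20.96 to 275.4 in DH-LMP2A and 6.84 to 25.65 in kFRA, and T cell markers to at most 99.47 CPM in any library. No listed marker of these lineages was at 0 in all libraries of a genotype. Of 10 B cell markers 8 fell and 0 rose in kFRA against WT, while in DH-LMP2A against WT 3 fell and 2 rose (Ms4a1 by 1.19 and Cr2 by 1.13 on the log2 scale). Of 8 erythroid markers 5 rose in each mutant genotype against WT. Of 10 monocyte and macrophage markers 3 fell in kFRA and 2 in DH-LMP2A against WT, and 0 rose. Of 7 granulocyte markers tested 3 fell in kFRA against WT, and in DH-LMP2A against WT 1 rose. Of 6 dendritic cell markers 1 rose in kFRA against WT and 2 fell in DH-LMP2A against WT. No T cell marker passed. Over all 14199 genes tested, 6.68% rose and 11.1% fell in kFRA against WT. In DH-LMP2A against WT, 5.07% of them rose and 7.3% fell. Of 16 cell cycle genes none passed in any comparison. Their part in the results below was not tested.

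Plasma cells turn a large part of their transcription and of their endoplasmic reticulum (ER) over to one product, secreted immunoglobulin. Jchain encodes the joining chain that links IgM and IgA units into polymers and takes part in their transport across epithelia. Mzb1 and Fkbp11 encode ER proteins: a cofactor of the chaperone GRP94 in IgM assembly and a membrane-bound prolyl isomerase. Fam46c, also called Tent5c, is a poly(A) polymerase that lengthens the tails of mRNAs translated at the ER. Eaf2 is a partner of the ELL elongation factors of RNA polymerase II. Trp53inp1 is a p53-induced protein of stress and autophagy, while Ly6c2 and Ly6k encode small proteins of the Ly6 family that are held on the cell surface by a lipid anchor.

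Mzb1, Fkbp11, Eaf2 and Ly6c2 were higher in both DH-LMP2A and kFRA than in WT, by 1.91-fold for Fkbp11 to 9.04-fold for Ly6c2. Ly6k was the 1 gene that differed between the mutant genotypes, 3.07-fold lower in kFRA. Jchain, Fam46c and Trp53inp1 passed in no comparison. In DH-LMP2A against WT, 4 of the 8 genes were higher past the threshold and 0 lower, where 5.07% of all 14199 genes tested were higher and 7.3% lower. In kFRA against WT, 4 were higher and 0 lower, against 6.68% higher and 11.1% lower over all genes. In kFRA against DH-LMP2A, 0 were higher and 1 lower, against 1.73% and 3.3%. The threshold was an adjusted p-value under 0.05 by edgeR's quasi-likelihood test. The median log2 fold change of the 8 genes was 0.86, 0.63 and −0.47 in these comparisons, beside −0.01, −0.04 and 0.00 over all genes. Both comparisons with WT use the same WT libraries, and the mutant genotypes may share an allele, so these comparisons are not independent. In RNA from a bulk fraction, a changed share of plasma cells and a changed RNA level per plasma cell cannot be told apart.

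**Figure D1:**
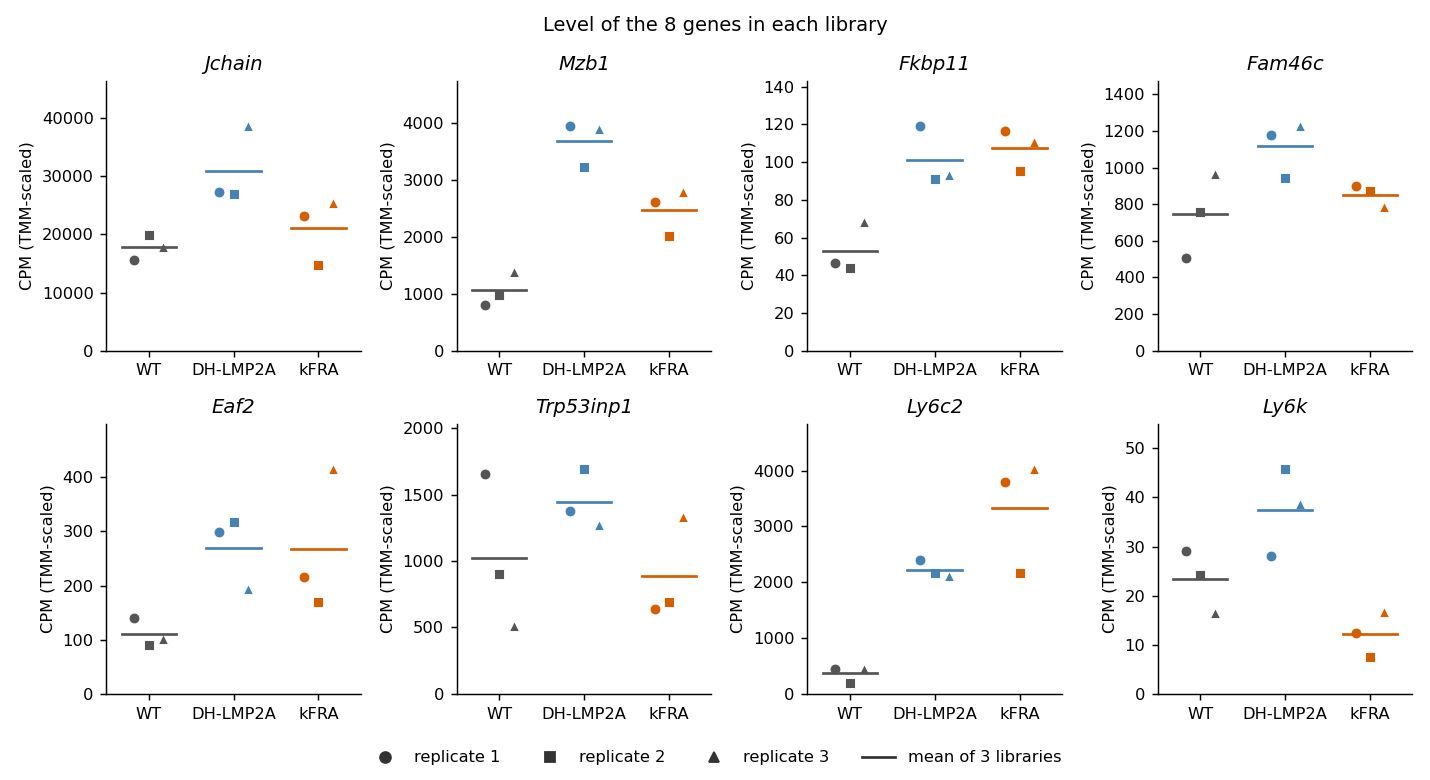
Level of each gene in CPM (vertical axes from 0) in the 9 libraries, with 1 symbol per replicate number and a line at the mean of each genotype's 3 libraries. For Mzb1, Fkbp11, Eaf2 and Ly6c2 the WT libraries lie below all DH-LMP2A and kFRA libraries, and for Ly6k the kFRA libraries lie below all DH-LMP2A libraries.

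Per length of exon, Jchain was the highest of the 8 genes in every genotype and Mzb1 the second. In CPM per kilobase of exon (RPKM), the WT mean of Jchain was 7082 ± 841.3, that of DH-LMP2A 12303 ± 2643 and that of kFRA 8390 ± 2257 (SD, n = 3 each). Mzb1 followed with 1170 ± 325.2, 4082 ± 438.9 and 2732 ± 448 RPKM. The order below them differed. In WT, Trp53inp1 (157.8 ± 89.91), Ly6c2 (134.4 ± 51.93) and Fam46c (122 ± 37.79 RPKM) differed by less than their spread. In the mutant genotypes Ly6c2 held the third place, at 811.3 ± 56.45 RPKM in DH-LMP2A and 1216 ± 371.7 RPKM in kFRA, above the other 5. The lowest places were held by Ly6k and Eaf2, at 28.13 ± 7.667 and 25.32 ± 5.988 RPKM in WT, where they differed by less than their spread. In kFRA, Ly6k was lowest at 14.75 ± 5.511 RPKM, below Eaf2 at 61.09 ± 29.73 RPKM.

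Jchain lies on the minus strand of chromosome 5 (88519809 to 88527891, GRCm38) and shares no exon base with another annotated gene. It was at 15678, 19911 and 17886 CPM in WT replicates 1 to 3, at 27239, 27010 and 38647 CPM in DH-LMP2A and at 23245, 14680 and 25428 CPM in kFRA. All DH-LMP2A libraries lay above all others, and kFRA replicate 2 was the lowest of the 9. The difference between DH-LMP2A and WT, a log2 fold change of 0.80 (SE 0.330, 95% interval 0.05 to 1.54), did not pass after adjustment (edgeR adjusted p = 0.159). It passed with scaling by library size alone (1.13, edgeR adjusted p = 0.00782) and by the DESeq2 Wald test (0.81, adjusted p = 0.0116). With library size alone the median of all genes in this comparison was 0.33, beside −0.01 with trimmed-mean factors. kFRA against WT gave 0.24 (interval −0.49 to 0.98, edgeR adjusted p = 0.615) and kFRA against DH-LMP2A −0.55 (interval −1.29 to 0.19, edgeR adjusted p = 0.343).

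The joining chain binds the tails of IgM and IgA heavy chains, so its transcript was set beside those of the chains it joins. Ighm, the IgM heavy chain, fell by 4.12 on the log2 scale in DH-LMP2A (SE 0.389, edgeR adjusted p = 0.000171) and by 4.26 in kFRA (SE 0.392, edgeR adjusted p = 9.71e-05) against WT. Igha, the IgA heavy chain, was at 41477 CPM in WT, 54.71 CPM in DH-LMP2A and 26.18 CPM in kFRA. For each 100 counts of heavy-chain constant-region genes there were 5.132 to 7.463 Jchain counts in the WT libraries, 269.3 to 371.8 in DH-LMP2A and 201.9 to 249.2 in kFRA. Beside the kappa constant gene Igkc the order was another: 11.06 to 17.07 Jchain counts per 100 Igkc counts in WT, 23.59 to 25.2 in DH-LMP2A and 5.381 to 6.795 in kFRA. Neither ratio overlapped between any 2 genotypes, and both are descriptions with no test. Each ratio also moves with its denominator, and heavy-chain counts were low in both mutant genotypes. The Igkc mean was 373424 CPM for kFRA, beside 125505 CPM for WT (edgeR adjusted p = 0.0643) and 126859 CPM for DH-LMP2A (edgeR adjusted p = 0.128). The ratios thus do not show a change in Jchain itself, which passed in no comparison of the main fit. As a share of all counts Jchain took 1.393% to 1.811% in WT, 3.118% to 4.064% in DH-LMP2A and 1.794% to 2.275% in kFRA.

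**Figure D2:**
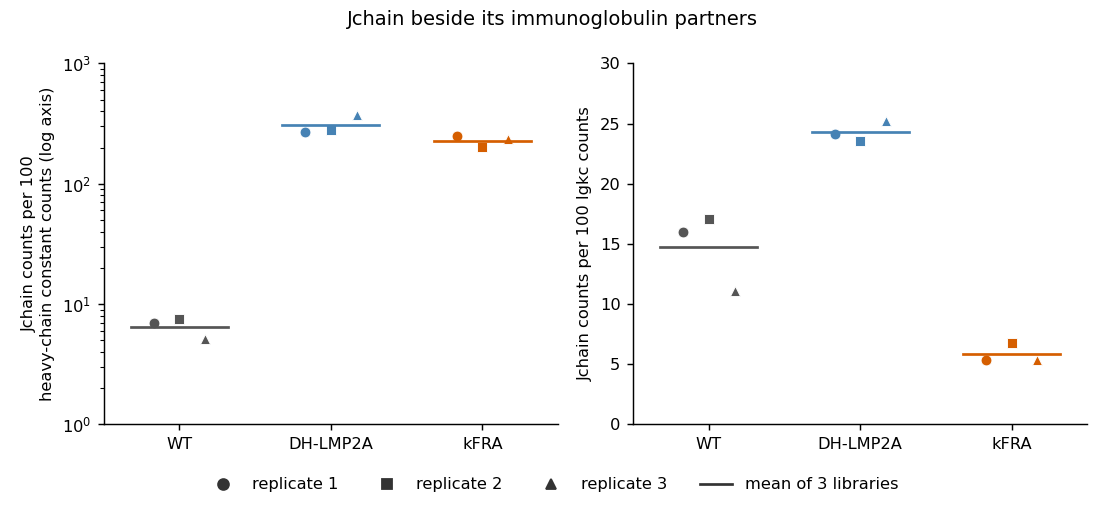
Jchain counts per 100 counts of heavy-chain constant-region genes (left, log axis) and per 100 Igkc counts (right, from 0) in each library, with the mean of 3 libraries as a line. On the left the WT libraries sit between 5.132 and 7.463 and all others above 201.9. On the right the kFRA libraries are lowest and the DH-LMP2A libraries highest.

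Fkbp11 rose about equally in both mutant genotypes. It lies on the minus strand of chromosome 15 (98724373 to 98728198) and was at 46.7, 44.12 and 68.21 CPM in WT, 119.2, 90.98 and 93.13 CPM in DH-LMP2A and 116.3, 95.24 and 110.5 CPM in kFRA. WT stood below both mutant genotypes, which overlapped. The log2 fold change against WT was 0.93 in DH-LMP2A (SE 0.193, edgeR adjusted p = 0.013) and 1.02 in kFRA (SE 0.193, edgeR adjusted p = 0.00738). The kFRA call held in every fit that left out 1 of the 9 libraries. The DH-LMP2A call was lost without DH-LMP2A replicate 1 (edgeR adjusted p = 0.0694), WT replicate 1 (0.0519) or WT replicate 2 (0.0594). Between the mutant genotypes the difference was 0.09 (interval −0.34 to 0.51, edgeR adjusted p = 0.823). Among the other prolyl isomerases of its family, 11 of 14 were tested. Fkbp2, another ER member, rose in both genotypes (1.10 in DH-LMP2A, edgeR adjusted p = 0.0163, and 0.85 in kFRA, edgeR adjusted p = 0.037), and in kFRA Fkbp14 also rose while Fkbp9 fell.

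Mzb1 rose more. It lies on chromosome 18 (35647266 to 35649367) and was at 810.4, 983.3 and 1384 CPM in WT, 3950, 3236 and 3895 CPM in DH-LMP2A and 2611, 2016 and 2791 CPM in kFRA. No 2 genotypes overlapped, with WT lowest and DH-LMP2A highest. Against WT the log2 fold change was 1.80 in DH-LMP2A (SE 0.254, edgeR adjusted p = 0.0021) and 1.22 in kFRA (SE 0.250, edgeR adjusted p = 0.0107), and both calls held in every fit that left out 1 library. The step from DH-LMP2A to kFRA, −0.58 (SE 0.247, interval −1.13 to −0.02), did not pass (edgeR adjusted p = 0.208). A GENCODE M21 gene model named SPATA24 shares 76.8% of the exon bases of Mzb1 on the same strand. How reads there were counted is not given, and the Mzb1 values are uncertain to that extent.

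The ER cofactor list, 28 genes of folding, disulfide formation, translocation and degradation, also held more genes that rose than fell against WT. In DH-LMP2A against WT, 11 of 28 rose and 0 fell, with a median log2 fold change of 0.48. In kFRA against WT, 15 rose and 1 fell, with a median of 0.73. In kFRA against DH-LMP2A, 0 rose and 1 fell, with a median of −0.01, and the gene that fell in both kFRA comparisons was the disulfide isomerase Txndc5. Hsp90b1, which encodes GRP94, the partner of the Mzb1 protein, rose by 1.07 in DH-LMP2A (SE 0.246, edgeR adjusted p = 0.021) and 1.06 in kFRA (SE 0.246, edgeR adjusted p = 0.0183). The disulfide isomerases Pdia4 and Pdia6 rose by 1.74 and 1.63 in DH-LMP2A and by 1.16 and 1.08 in kFRA. By the smallest root mean square difference between centred log2 CPM profiles over the 9 libraries, among 9625 genes, Pdia4 (0.10), Pdia6 (0.13) and Edem2 (0.14) were most like Mzb1. For Fkbp11 they were Hsp90b1 (0.09), Chid1 (0.11) and Tpst1 (0.12), and for Jchain Cst3 (0.10), Rnase6 (0.13) and Zdhhc18 (0.16).

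**Figure D3:**
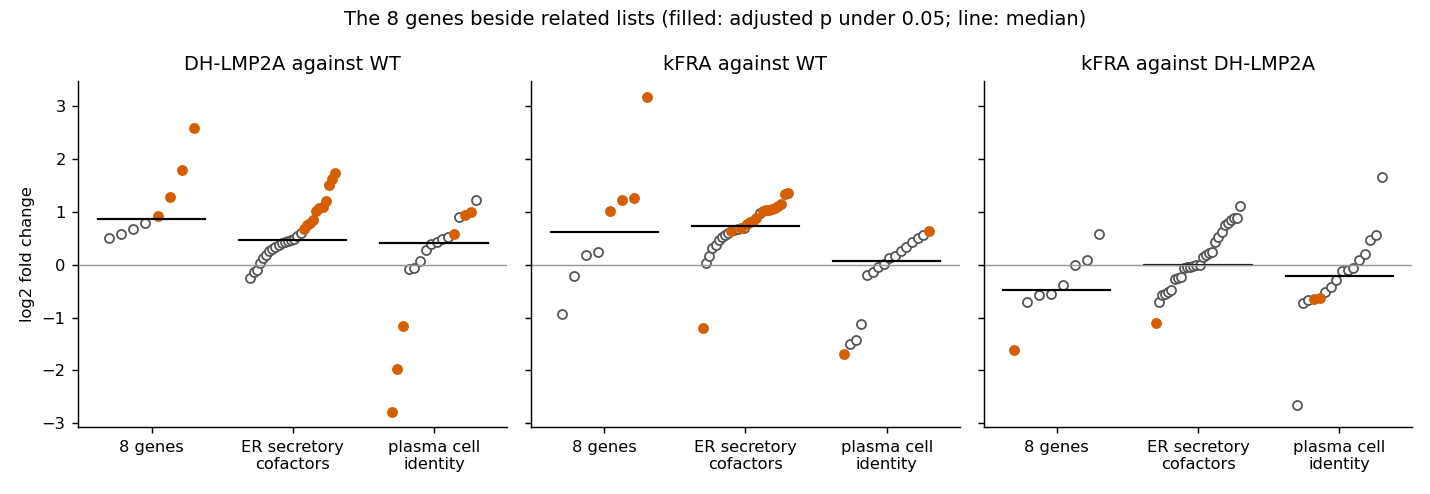
Log2 fold change of each gene in the 3 comparisons for the 8 genes, 28 ER secretory cofactors and 16 plasma cell identity genes, sorted within a list, with filled points for an adjusted p under 0.05 and a line at the median. The ER cofactors lie mostly above 0 in both comparisons with WT, with medians of 0.48 and 0.73, and around 0 in kFRA against DH-LMP2A.

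The plasma cell identity list did not move one way. In DH-LMP2A against WT 3 of 16 rose (Prdm1, Slamf7 and Cd28) and 3 fell (Slpi, Ccr10 and Tnfrsf17), in kFRA against WT Slamf7 rose and Tnfrsf17 fell, and in kFRA against DH-LMP2A Cd28 and Pou2af1 fell. Xbp1 and Irf4, regulators of the secretory program and of plasma cell fate, passed in no comparison: against WT, Xbp1 differed by 0.39 in DH-LMP2A and 0.27 in kFRA (SE 0.248 each, edgeR adjusted p = 0.368 and 0.447), and Irf4 by 0.52 and 0.43 (SE 0.281 each, edgeR adjusted p = 0.286 and 0.296).

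Fam46c lies on chromosome 3 (100451628 to 100489324). Its level was 506.5, 759.2 and 966.6 CPM in WT, 1178, 944.4 and 1227 CPM in DH-LMP2A and 897.8, 872.2 and 782.3 CPM in kFRA. The kFRA libraries were close together and lay inside the WT range, and WT replicate 3 was above DH-LMP2A replicate 2. The log2 fold change was 0.59 in DH-LMP2A against WT (interval 0.05 to 1.12, edgeR adjusted p = 0.153), 0.19 in kFRA against WT (interval −0.34 to 0.73, edgeR adjusted p = 0.583) and −0.39 in kFRA against DH-LMP2A (interval −0.93 to 0.14, edgeR adjusted p = 0.352). With library size alone the first passed (0.95, edgeR adjusted p = 0.0198), where the median of all genes was 0.33. Of its 3 paralogs only Fam46a had enough counts to be tested, and it passed in no comparison.

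Eaf2, on chromosome 16 (36792884 to 36875003), was at 140.2, 90.54 and 101.2 CPM in WT, 298, 316.6 and 193.2 CPM in DH-LMP2A and 216.3, 170 and 414.6 CPM in kFRA. All WT libraries lay below all others, and kFRA replicate 3 was far above the other kFRA libraries. Against WT it rose by 1.28 on the log2 scale in DH-LMP2A (SE 0.343, edgeR adjusted p = 0.0395) and by 1.27 in kFRA (SE 0.343, edgeR adjusted p = 0.033). These calls were near the threshold. The DH-LMP2A call held only in the fits without DH-LMP2A replicate 3, kFRA replicate 2 or kFRA replicate 3, and without each of the other 6 libraries in turn its adjusted p lay between 0.0532 and 0.141. The kFRA call was lost without kFRA replicate 1 (edgeR adjusted p = 0.0585), kFRA replicate 3 (0.0933, log2 fold change 0.81), WT replicate 2 (0.12) or WT replicate 3 (0.0827). Between the mutant genotypes Eaf2 differed by −0.01 (interval −0.77 to 0.74, edgeR adjusted p = 0.99). None of the 8 tested ELL and EAF partners rose or fell in any comparison, among them Ell2 (0.28 in DH-LMP2A and −0.14 in kFRA against WT, edgeR adjusted p = 0.409 and 0.634) and Eaf1. The gene most like Eaf2 was Iqcb1 (root mean square difference 0.23), which lies at 36828385 to 36872721 on the same chromosome, inside the span of Eaf2 but without a shared exon base.

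Trp53inp1, on chromosome 4 (11156431 to 11174379), had the widest range of the 8 genes within WT. It was at 1654, 904.4 and 507.4 CPM in WT replicates 1 to 3, a 3.259-fold range, at 1378, 1691 and 1274 CPM in DH-LMP2A and at 636, 688 and 1328 CPM in kFRA. All genotypes overlapped. The log2 fold change was 0.50 in DH-LMP2A against WT (interval −0.45 to 1.46), −0.21 in kFRA against WT (interval −1.16 to 0.74) and −0.71 in kFRA against DH-LMP2A (interval −1.67 to 0.24), with edgeR adjusted p = 0.518, 0.743 and 0.344. The intervals hold changes of 2-fold or more in at least 1 direction in each comparison. Of 12 p53 pathway genes, the 1 that passed was Trp73, a p53 relative, which fell in both comparisons with WT, from 8.26 CPM in WT to 0.2093 CPM in DH-LMP2A and 0.4627 CPM in kFRA. Trp53inp2, the paralog of Trp53inp1, passed in none.

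**Figure D4:**
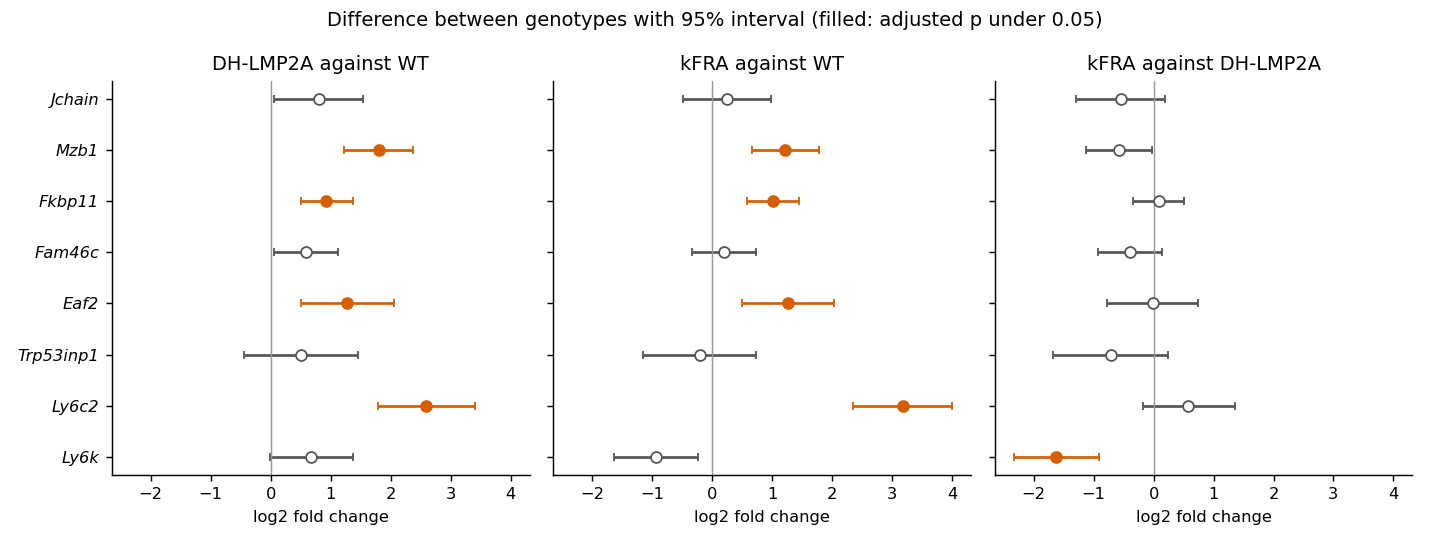
Log2 fold change of each gene in the 3 comparisons (horizontal axis) with its 95% interval, filled where the edgeR adjusted p was under 0.05. Mzb1, Fkbp11, Eaf2 and Ly6c2 are filled in both comparisons with WT, and Ly6k is the single filled point in kFRA against DH-LMP2A, at −1.62.

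Ly6c2, on the minus strand of chromosome 15 (75108158 to 75111970), showed the largest differences of the 8 genes. It was at 446.9, 204 and 453.8 CPM in WT, 2399, 2163 and 2107 CPM in DH-LMP2A and 3804, 2161 and 4026 CPM in kFRA. Every mutant library was above every WT library, and kFRA replicate 2 lay within the DH-LMP2A range while replicates 1 and 3 lay above it. Against WT the log2 fold change was 2.59 in DH-LMP2A (SE 0.359, edgeR adjusted p = 0.00196) and 3.18 in kFRA (SE 0.367, edgeR adjusted p = 0.000469). Both calls held in all 17 alternatives run. Between the mutant genotypes the difference of 0.58 did not pass (interval −0.18 to 1.35, edgeR adjusted p = 0.331). Ly6C is also found on monocytes and on plasmacytoid dendritic cells. Among the listed markers that passed, those of monocytes and macrophages fell, while those of dendritic cells went both ways. Siglech, a marker of plasmacytoid dendritic cells, was at 0.8104, 0.7141 and 1.146 CPM in WT, 1.692, 2.181 and 1.922 CPM in DH-LMP2A and 6.703, 3.711 and 11.48 CPM in kFRA. It rose in kFRA against WT (log2 fold change 3.03, edgeR adjusted p = 0.00156) and against DH-LMP2A (1.91, edgeR adjusted p = 0.0239), and differed by 1.12 in DH-LMP2A against WT (edgeR adjusted p = 0.123). Bst2, also high in those cells, fell in DH-LMP2A against WT (−0.85, edgeR adjusted p = 0.0227). In kFRA against WT it differed by −0.13 (edgeR adjusted p = 0.67). The Bst2 mean was 97.09 CPM in WT and 89.05 CPM in kFRA, where Siglech averaged 0.8903 and 7.297 CPM. Whether Bst2 follows plasmacytoid dendritic cells in this fraction was not tested. Lyz2, a lysozyme of monocytes and macrophages, fell by 2.42 in DH-LMP2A (edgeR adjusted p = 0.0159) and by 2.60 in kFRA (edgeR adjusted p = 0.0101). Over the list of 10 monocyte and macrophage markers the median log2 fold change was −1.12 in DH-LMP2A and −0.86 in kFRA against WT. Ccr2, a receptor of Ly6C-high monocytes, averaged 2.05 CPM in DH-LMP2A against 1.267 CPM in WT and 0.6611 CPM in kFRA. For Cd14 the means in that order were 86.22, 67.73 and 51.85 CPM. Neither passed in any comparison. The part of these cells in the Ly6c2 values was not tested.

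Ly6c2 has a near copy, Ly6c1, on the same strand of the same chromosome. Over coding sequences of 393 bases (GENCODE M21 transcripts, GRCm38) the copies differ at 9 bases, an identity of 97.7%. The first 120 coding bases are shown because 6 of the 9 differences lie there, with the differing bases in capitals.
Ly6c1: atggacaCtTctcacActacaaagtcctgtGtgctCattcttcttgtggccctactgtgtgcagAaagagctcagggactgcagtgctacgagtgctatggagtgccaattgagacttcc
Ly6c2: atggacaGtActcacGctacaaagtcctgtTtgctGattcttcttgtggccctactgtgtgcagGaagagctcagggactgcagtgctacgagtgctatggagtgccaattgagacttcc
Of all 75-base stretches of the Ly6c2 transcripts 9.5% also occur in a Ly6c1 transcript, and 19.0% of those of Ly6c1 occur in another gene. Single reads of that length from these parts could not be placed. Ly6c1 was at 31.2, 17.39 and 32.61 CPM in WT, 1331, 1167 and 1169 CPM in DH-LMP2A and 2006, 1200 and 2036 CPM in kFRA. It rose by 5.50 on the log2 scale in DH-LMP2A (SE 0.342, edgeR adjusted p = 1.03e-05) and by 6.01 in kFRA (SE 0.350, edgeR adjusted p = 3.65e-06). For each 100 Ly6c2 counts there were 6.981 to 8.527 Ly6c1 counts in WT, 53.97 to 55.49 in DH-LMP2A and 50.58 to 55.5 in kFRA. The 2 copies thus did not change by the same factor, and this ratio varied little within a genotype. The part of the mixed strain background in the levels of the 2 copies was not tested. Their summed level was 221.4 to 486.4 CPM in WT, 3276 to 3729 in DH-LMP2A and 3361 to 6062 in kFRA.

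**Figure D5:**
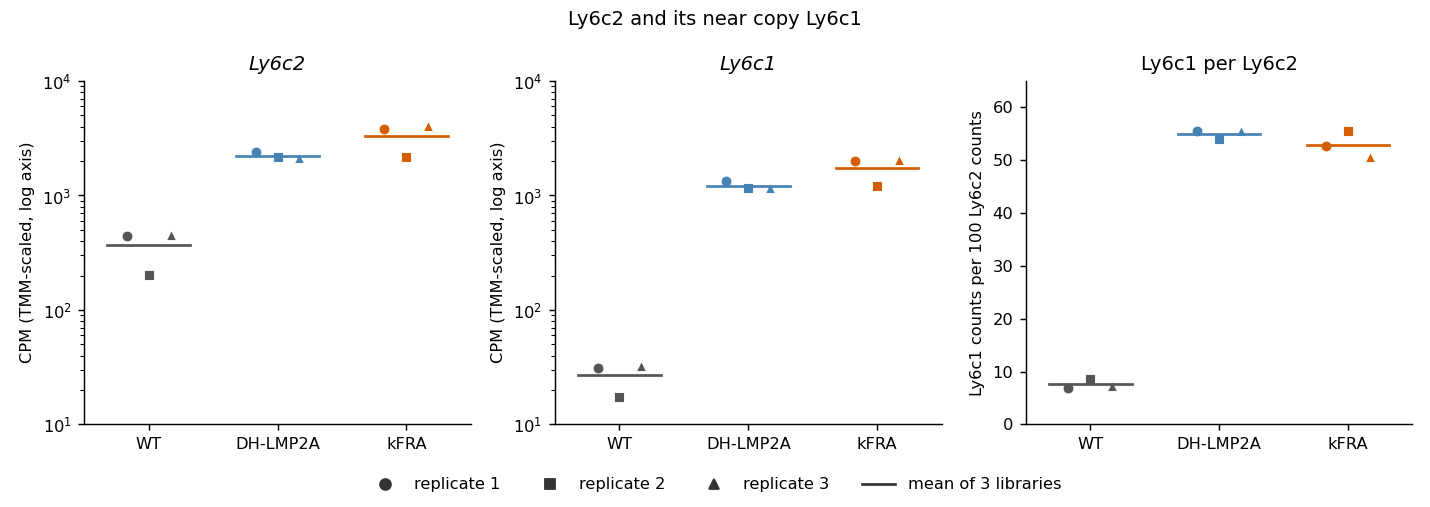
Level of Ly6c2 and of its near copy Ly6c1 in CPM (log axes) and Ly6c1 counts per 100 Ly6c2 counts (right, from 0) in each library, with the mean of 3 libraries as a line. Both genes are lowest in WT, and the ratio sits between 6.981 and 8.527 in WT and between 50.58 and 55.5 in the other genotypes.

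The bases just before the start sites of both copies are shown because both genes rose in both mutant genotypes. RefSeq windows for GRCm38.p6 were used for 5 of the 8 genes: Jchain, Fkbp11, Fam46c, Eaf2 and Ly6c2. Mzb1 was left out of this search, and no window was found for Trp53inp1 or Ly6k. The 120 upstream bases are given 5′ to 3′ on the minus strand, chr15:75048838-75048957 for Ly6c1 and chr15:75111972-75112091 for Ly6c2, with matches to the E box (CANNTG) and to CCAAT in capitals.
Ly6c1: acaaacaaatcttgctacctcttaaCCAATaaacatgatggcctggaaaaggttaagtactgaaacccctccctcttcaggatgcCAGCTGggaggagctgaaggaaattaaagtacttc
Ly6c2: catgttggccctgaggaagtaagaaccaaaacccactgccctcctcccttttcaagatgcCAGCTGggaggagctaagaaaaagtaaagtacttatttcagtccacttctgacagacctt
Over 250 upstream bases, 216 could be aligned and 75.9% of those were identical. The shared E box lies 35 to 30 bases before the start site in Ly6c1 and 60 to 55 in Ly6c2. Searched on both strands, an E box occurred in the 250 bases before the start of 66.2% of 32851 RefSeq windows, and was found for Jchain, Fkbp11, Eaf2 and Ly6c2. CCAAT occurred in 33.8% of windows and was found for Fam46c and Eaf2. CCACG (28.3% of windows), which with CCAAT makes up the ER stress element, ACGTGG (6.9%), the core of the unfolded protein response element, the IRF elements GAAANNGAA (7.1%) and GGAANNGAA (7.0%) and the ATF4 element TGATGCAA (0.8%) had no match in the windows of these 5 genes.

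Of the other genes of the Ly6 family, 13 of 16 listed were matched in the table and 8 were tested. Ly6d rose against WT in both genotypes, by 1.87 in DH-LMP2A (SE 0.263, edgeR adjusted p = 0.00206) and 1.96 in kFRA (SE 0.263, edgeR adjusted p = 0.0012). Ly6a, which encodes Sca-1, went another way. It was at 715.1, 487.2 and 648.8 CPM in WT, 277.4, 268.8 and 187.9 CPM in DH-LMP2A and 751.5, 344.6 and 699.8 CPM in kFRA, lower in DH-LMP2A than in WT (−1.33, edgeR adjusted p = 0.0209) and higher in kFRA than in DH-LMP2A (1.29, edgeR adjusted p = 0.0435). Ly6i, at 2.601 to 5.419 CPM in WT, was also higher in kFRA than in DH-LMP2A (1.82, edgeR adjusted p = 0.0208). Ly6a is one of the genes that share 75-base stretches with Ly6c1. Such sharing was not measured for Ly6d and Ly6i.

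Ly6k, on chromosome 15 (74796874 to 74799986), was the rarest of the 8 genes by counts in kFRA, with 180, 160 and 267 counts, beside 663, 986 and 845 in DH-LMP2A and 576, 475 and 260 in WT. In CPM it was at 12.31, 7.612 and 16.75 in kFRA, 28.05, 45.75 and 38.67 in DH-LMP2A and 29.17, 24.23 and 16.56 in WT. All kFRA libraries lay below all DH-LMP2A libraries, while kFRA replicate 3 was just above WT replicate 3. In kFRA against DH-LMP2A Ly6k fell by 1.62 on the log2 scale (SE 0.316, interval −2.33 to −0.91, edgeR adjusted p = 0.0192). The call was lost without DH-LMP2A replicate 2 (edgeR adjusted p = 0.0799), DH-LMP2A replicate 3 (0.0502) or kFRA replicate 1 (0.0854), with log2 fold changes of −1.40, −1.55 and −1.63. Against WT the change in kFRA was −0.94 (interval −1.64 to −0.23, edgeR adjusted p = 0.0668), which passed by the DESeq2 Wald test (adjusted p = 0.0354), without a filter on low counts (edgeR adjusted p = 0.0403) and without kFRA replicate 3 (0.0459) or WT replicate 3 (0.0492). DH-LMP2A against WT gave 0.68 (interval −0.01 to 1.37, edgeR adjusted p = 0.192). The antisense gene Gm17189 overlaps 47.6% of the Ly6k exon bases, and without a stated strand setting the reads there cannot be told apart.

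Among the 8 genes, the profiles least alike over the 9 libraries were those of Ly6c2 and Ly6k, with a root mean square difference of 1.77 on the centred log2 scale, and the most alike were Jchain and Fam46c at 0.32. Once each genotype was centred on its own mean, Mzb1 and Fkbp11 were closest, at 0.13. Within kFRA, replicate 2 was the lowest library for Jchain, Mzb1, Fkbp11, Eaf2, Ly6c2 and Ly6k, by 0.17 to 0.60 below the kFRA mean of log2 CPM, but not for Fam46c or Trp53inp1. In this library immunoglobulin genes took 29.21% of the counts, beside 44.04% and 45.36% in kFRA replicates 1 and 3. Its trimmed-mean factor was 1.223, beside 0.947 and 0.895, and a larger factor lowers every scaled CPM. The part of these differences in the values was not tested. Without kFRA replicate 2 the number of the 8 genes past the threshold was 4, 4 and 1 in the comparisons above, as with it.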

How the data were processed

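RNA-seq of 9 CD138-selected spleen cell libraries was used, from 3 genotypes with 3 mice each. The authors deposited 1 table of unnormalized counts by gene in the layout of featureCounts, with exon coordinates and merged exon lengths, per the file headers. Per the submitters' processing notes, STAR 2.4.0a, featureCounts, Subread 1.5.0-p3 and DESeq2 were used, with the builds mm10 and GRCm38. The strand setting and the treatment of reads with several matches are not given in the sources used here. Total counts were 15449026 to 21558128 per library, and at this depth 3 counts equal 0.139 to 0.194 CPM, covering counting error only.

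Genes were filtered with filterByExpr (14199 kept), scaled by trimmed-mean (TMM) factors and tested with edgeR 4.0.16 under R 4.3.3 in 1 quasi-likelihood fit of all 9 libraries, 2-sided, with Benjamini-Hochberg adjustment over all genes and 0.05 as the threshold. SE is the log2 fold change divided by the root of F. RPKM divides CPM by exon length. DESeq2 1.42.0 served as an alternative. Motifs and shared 75-base stretches were found with Python 3.11.15. The other alternatives were DESeq2 size factors, library size alone, other count filters, immunoglobulin genes left out, a replicate block, 6 libraries only, stricter thresholds and each library left out in turn.

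The 8 genes and the gene lists were chosen with earlier results of these data known. Named were the 8 genes, their partners and paralogs, the 3 members of each list with the smallest p-value, and the 3 genes most like each of the 8 by profile, of which a part is printed. Naming Ccr10 and Tnfrsf17 in DH-LMP2A against WT, and Cd14, was chosen after their values were seen.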

Additional observations from a re-analysis of the deposited data

How the results depend on the processing

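The numbers past the threshold were 713 genes in kFRA against DH-LMP2A, 2523 in kFRA against WT and 1756 in DH-LMP2A against WT, and among the 8 genes 1, 4 and 4. With an adjusted p under 0.01 these became 306, 975 and 765 genes, and 0, 2 and 2 of the 8. The DESeq2 Wald test gave 1405 genes in kFRA against DH-LMP2A, a fold change of at least 2 gave 1588 in kFRA against WT, and a mean of at least 5 CPM gave 1094 in DH-LMP2A against WT. Over the fits that left out 1 library each, the counts ranged from 352 to 3299, from 1271 to 5632 and from 932 to 2364 genes, and from 0 to 1, 3 to 4 and 2 to 4 of the 8. The count of 5632 and that of 3299 came without kFRA replicate 2. The lowest counts came without kFRA replicate 1, WT replicate 2 and DH-LMP2A replicate 1. Counts also moved by over 1.5 times without DH-LMP2A replicate 1 (353), DH-LMP2A replicate 2 (379) or kFRA replicate 3 (411) in kFRA against DH-LMP2A, without kFRA replicate 1 (1289) or 3 (1537) in kFRA against WT, and without WT replicate 2 (1027) in DH-LMP2A against WT.

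With the replicate number as a block the counts were 685, 2930 and 2067 genes and 1, 4 and 4 of the 8. Same-numbered libraries come from different mice, and their deviations correlated between −0.21 and 0.20. No pairing was used in the main fit. With 3 libraries per genotype these values cannot show whether same-numbered libraries shared a batch. Scaling by library size alone gave a median of all genes of −0.14 in kFRA against DH-LMP2A, 0.17 in kFRA against WT and 0.33 in DH-LMP2A against WT (0.00, −0.04 and −0.01 with TMM), and raised the share of higher calls to 72.0% in kFRA against WT (37.6% with TMM) and 79.9% in DH-LMP2A against WT (41.0%), and lowered it to 26.0% in kFRA against DH-LMP2A (34.4%). For the 8 genes, signs turned only among differences that did not pass. Eaf2 in kFRA against DH-LMP2A turned to 0.03 with DESeq2 size factors, without immunoglobulin genes and by the Wald test, and ranged from −0.48 to 0.29 over the fits that left out 1 library, with 4 of them above 0. Fkbp11 there turned to −0.07 with library size alone. Trp53inp1 in kFRA against WT ranged from −0.62 to 0.32 over those fits, above 0 without kFRA replicate 2 (0.02) or WT replicate 1, and Fam46c from −0.02 without WT replicate 1 to 0.43. The cause was not tested.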
